A study of Mus musculus with 4 samples.

Results

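The genes described here are 10 ligands and receptors of the vascular endothelial growth factor (VEGF) and angiopoietin systems, namely Vegfa, Vegfb, Vegfc, Flt1, Kdr, Flt4, Nrp1, Angpt1, Tek and Tie1. They were taken by gene symbol, with every probe set that the arrays' annotation assigns to one of them alone. The rule uses no measured value, although the set was proposed with earlier results of these data known. This gave 21 probe sets of the 45265 on both array designs, 16 on MOE430A and 5 on MOE430B. Of these, 17 passed a filter on low signal, and each of the 10 genes had at least 1 passing probe set, among 12559 genes measured in all. RNA came from fetal lung of BALB/c mice at E18.5, shortly before birth. One genotype was wild type and the other was null for both Myf5 and MyoD (Myf5-/-:MyoD-/-), the transcription factors that start skeletal muscle development, and the series title asks what skeletal muscle does for the developing lung. There were 4 Affymetrix arrays, 1 per genotype on each of the 2 designs. With 1 array in each group there was no test between genotypes and no p-value, and the number of arrays limits the precision of every value. The sources used here do not give how many embryos an array's RNA came from, nor whether the arrays of a genotype shared an RNA sample.

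The VEGF ligands are secreted proteins that act on receptor tyrosine kinases of endothelial cells. Vegfa binds Flt1 and Kdr, Vegfb binds Flt1, and Vegfc binds Flt4, the receptor of lymphatic vessels, with Nrp1 serving as a co-receptor. Angpt1, made mostly by perivascular and mesenchymal cells, activates Tek (TIE2) and stabilises vessels, and Tie1 is the partner receptor of Tek. In the fetal lung, epithelial VEGF guides growth of the capillaries that come to line the air spaces.

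Each value is a signal of 1 probe set in arbitrary units on a linear scale, and the double knockout signal was rescaled by 1 factor per design. A log2 ratio is the double knockout signal over the wild type signal, and a positive value means a higher signal in the double knockout array. Signals of different probe sets were used to pick the brightest probe set of a gene and, where stated, were summed over a marker list, but no gene's level was compared with another's. The probe sets carried by both designs, 100 in number, gave an SD of 0.24 for 1 log2 ratio, used below as a yardstick of spread. On average their ratio on MOE430B was 0.22 below that on MOE430A. If the arrays of a genotype shared an RNA sample, which is not known, this SD leaves out the spread between embryos. A ratio beyond it is therefore not by itself a difference between genotypes. The targeted genes did not settle the labels. Myf5 read 110.5 and 8.94 in the arrays labelled wild type and double knockout, both below the floor of 283.8, whereas Myod1 read 85.0 and 1081 on MOE430A, against its label. A further Myod1 probe set on MOE430B, below the filter and with a suffix that marks possible cross-hybridisation, read 337.2 and 607.2, also against its label. The sources used here do not place these probe sets inside or outside the deleted sequence, so every direction below rests on the arrays as labelled. Xist, the RNA of the inactive X chromosome, had a 2.76-fold lower signal in the double knockout, so that sex and genotype cannot be told apart, and the 18S ribosomal RNA controls had 3.91-fold higher signals on MOE430A and 3.13-fold higher signals on MOE430B. Sftpc, a surfactant protein of type II cells named after its values were seen, read 78525 and 113337, and Pecam1, an antigen of endothelium, 6031 and 4758, so defining markers of lung epithelium and of vessels were above the filter in both arrays. In lung tissue, fewer cells of a type and less RNA per cell cannot be told apart either.

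The VEGF and angiopoietin genes differed little between the genotypes. Taking for each gene its brightest passing probe set, the log2 ratios ran from -0.24 for Tek to 0.49 for Vegfb, with a median of 0.07, beside a median of -0.02 over all genes measured. Of the 10 genes, 0 lay beyond 1.5-fold in either direction. Among all genes measured, 9.44% were that much higher and 9.67% that much lower, and the shares beyond 2-fold, where there were likewise 0 members, were 3.85% and 3.64%. The ratios of 8 genes lay within 1 SD of 0, and those of Vegfa and Vegfb lay further out, as did 52.2% of all genes measured. The span from the lowest to the highest member held 61.1% of all genes measured. Of the 17 passing probe sets, 15 lay within 1.5-fold, 1 of Nrp1 was higher and 1 of Flt1 was lower, and other probe sets of the same genes did not share those differences. At that fold the background was 6.38% higher and 7.31% lower among passing probe sets of MOE430A, and 18.6% and 15.5% on MOE430B.

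**Figure D1:**
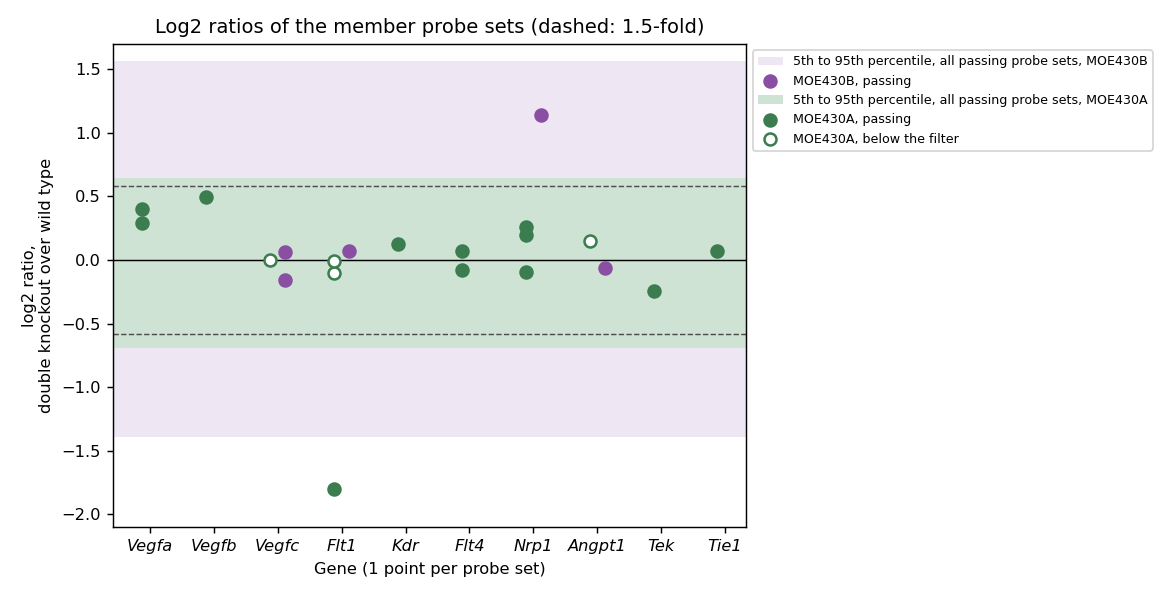
Log2 ratio of each member probe set (double knockout over wild type, y axis) by gene (x axis), with filled points for passing and open points for dimmer probe sets, and bands for the 5th to 95th percentile of all passing probe sets of each design. The Flt1 point at -1.80 lies below the MOE430A band, which ends at -0.69, and the Nrp1 point at 1.14 lies inside the wider MOE430B band, which ends at 1.56.

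Among the ligands, both Vegfa probe sets and the single Vegfb probe set had higher signals in the double knockout array. Vegfa, the main growth factor of blood vessels, read 2552 in the wild type array and 3366 in the double knockout array by its brighter probe set, a log2 ratio of 0.40. Its other probe set read 2258 and 2759, a ratio of 0.29, so that both pointed the same way. Vegfb, a ligand linked to fatty acid handling and coronary vessels, read 3179 and 4476, a 1.41-fold higher signal and the highest ratio of the set at 0.49. A ratio at least as high was found for 15.9% of all genes measured in the case of Vegfa and for 12.0% in the case of Vegfb. Neither gene passed 1.5-fold in any of the processing alternatives that measured it, and their ratios kept between 0.29 and 0.42 for Vegfa and between 0.48 and 0.51 for Vegfb. The alternatives reread the same arrays, and for Vegfb the same single probe set, so these narrow ranges do not speak to reproducibility.

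Vegfc, the ligand that drives lymphatic growth, showed no such difference. Its brighter probe set on MOE430B read 2528 in the wild type array and 2642 in the double knockout array, a log2 ratio of 0.06. A second MOE430B probe set, with a suffix that marks possible cross-hybridisation, read 950.4 and 852.4, a ratio of -0.16. The MOE430A probe set was below the filter at 400.2 and 400.7. The Vegfc probe sets thus pointed in different directions, and their ratios were all smaller than the SD of 1 ratio.

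The promoters of the ligands with the highest ratios are shown because Vegfa and Vegfb stood highest together and their upstream sequences can be compared directly. Each is the 250 bases before the first listed RefSeq start site in build GRCm38.p6, 5′ to 3′ on the gene's strand. Vegfa lies at chr17:46032378-46032627, minus strand, and Vegfb at chr19:6987652-6987901, minus strand. Capitals mark GGAA or its reverse complement TTCC, the core letters bound by ETS family transcription factors, which are known regulators of endothelial genes.
Vegfa: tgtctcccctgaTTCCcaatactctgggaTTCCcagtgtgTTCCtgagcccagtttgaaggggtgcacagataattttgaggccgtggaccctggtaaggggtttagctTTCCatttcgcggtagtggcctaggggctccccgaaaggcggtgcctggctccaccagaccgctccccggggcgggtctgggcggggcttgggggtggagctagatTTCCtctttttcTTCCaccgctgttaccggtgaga
Vegfb: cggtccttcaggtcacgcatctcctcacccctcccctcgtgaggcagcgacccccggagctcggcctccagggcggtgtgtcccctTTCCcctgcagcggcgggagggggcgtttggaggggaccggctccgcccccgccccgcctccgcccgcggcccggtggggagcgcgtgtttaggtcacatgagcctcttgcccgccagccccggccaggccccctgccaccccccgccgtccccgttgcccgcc
The Vegfa window held 6 such matches and the Vegfb window 1. The core is short, and 93.4% of 32851 promoters of the same length held it, with a median of 3 matches. The GC box GGGCGG, searched on both strands, matched 2 times in Vegfa and 4 times in Vegfb, and 32.7% of all promoters held it. The hypoxia response core ACGTG, searched on both strands, had 0 matches in both windows and was held by 16.6% of all promoters. Sequence further upstream than the windows was not searched. A second listed Vegfa start site has its window at chr17:46025164-46025413, and that window held 1 match of the hypoxia core, 2 of the ETS core and 1 of the GC box. On the minus strand these coordinates lie downstream of the first start site, inside the gene. Whether that window acts as a promoter was not tested, and its hypoxia core match describes letters only. Matches of the ETS core shared 0 bases with those of the GC box or the hypoxia core. GC content was 59.2% for Vegfa and 76.4% for Vegfb.

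The signalling receptors of VEGF differed by less than the SD of 1 ratio in each of their brightest probe sets. Kdr (VEGFR2), which carries most of the mitogenic signal of VEGF in endothelium, read 3938 in the wild type array and 4290 in the double knockout array, a log2 ratio of 0.12 from its only probe set. Flt4 (VEGFR3), the receptor of Vegfc, read 1799 and 1894 by its brighter probe set, a ratio of 0.07. Its dimmer probe set read 842.4 and 795.5, a ratio of -0.08. The receptors of blood and lymphatic vessels therefore had nearly equal signals in both genotypes by these probe sets.

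Flt1 (VEGFR1), a receptor that binds VEGF tightly and, in its secreted form, traps it, was read by 4 probe sets that disagreed. The brightest, on MOE430B, read 2067 in the wild type array and 2168 in the double knockout array, a log2 ratio of 0.07. Probe set 1451756_at on MOE430A read 1042 and 298.9, a 3.49-fold lower signal with a ratio of -1.80. The remaining MOE430A probe sets were below the filter of 787.4, at 785.2 and 729.8 for one (a ratio of -0.11) and 701.6 and 697.5 for the other (-0.01). One probe set of 4 was thus lower and the others were nearly equal, and its double knockout signal lay just above the floor of 283.8. This probe set passed the filter through the wild type array alone, so its ratio had to be below 0 and its size is uncertain. Signals lower by 2-fold or more were found for 2.05% of the passing MOE430A probe sets, and by the same measure for 8% on MOE430B. Because 1451756_at was the only passing Flt1 probe set on MOE430A, Flt1 had a ratio of -1.80 on MOE430A alone and with both designs on a common scale, and -0.87 as the median over its passing probe sets. Whether it reads a particular Flt1 transcript was not tested.

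Nrp1, a co-receptor of VEGF and of class 3 semaphorins, was read by 4 passing probe sets, and its brightest gave nearly equal signals. On MOE430A the brightest read 7335 in the wild type array and 6868 in the double knockout array, a log2 ratio of -0.09. The others on that design read 3370 and 4029 (0.26) and 995.9 and 1142 (0.20). The MOE430B probe set 1457198_at read 1799 and 3972, a 2.21-fold higher signal with a ratio of 1.14. A difference of at least 2-fold upward was found for 9.7% of the passing MOE430B probe sets, against 1.8% on MOE430A. Of these 4 probe sets, 3 were therefore higher in the double knockout array and the brightest was lower, and only 1457198_at passed 1.5-fold. Nrp1 had 1.14 on MOE430B alone and 0.23 as the median over its probe sets.

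**Figure D2:**
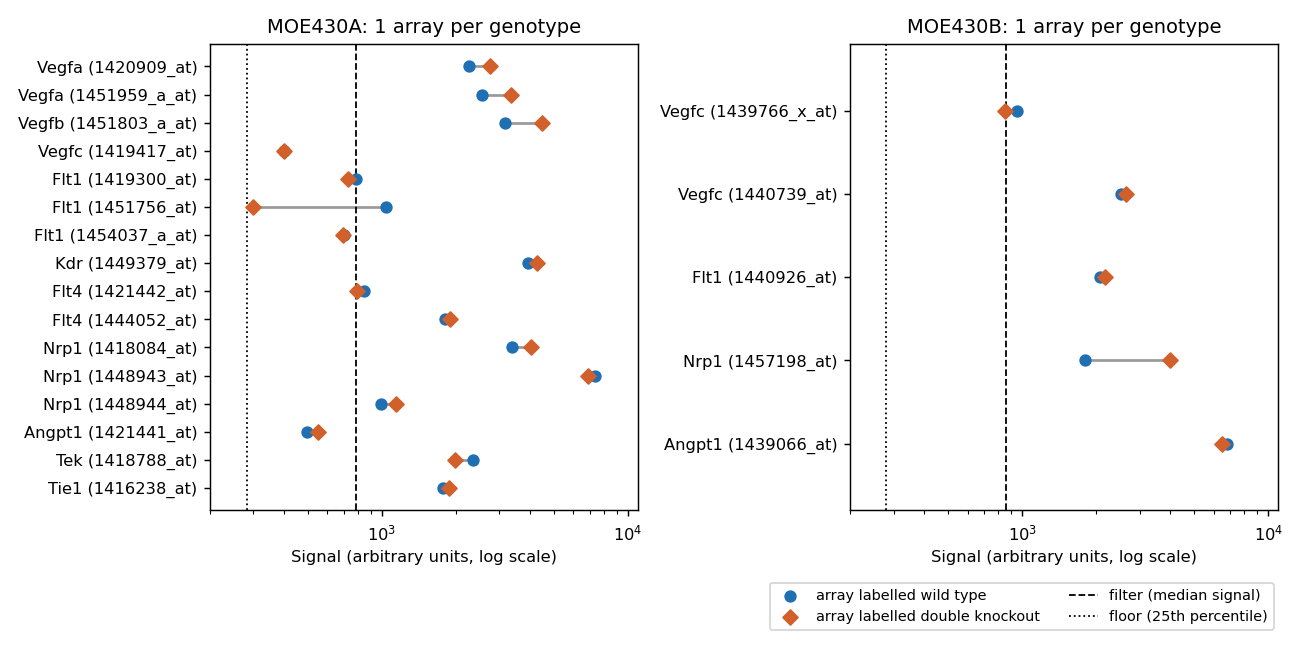
Signal of each member probe set (x axis, log scale, arbitrary units) in the arrays labelled wild type (circles) and double knockout (diamonds), by design, with 1 array per point. Most pairs nearly overlap; Flt1 1451756_at (1042 and 298.9) and Nrp1 1457198_at (1799 and 3972) are the pairs that stand furthest apart.

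In the angiopoietin system the signals also lay close together. Angpt1, the activating ligand of Tek, read 6781 in the wild type array and 6503 in the double knockout array on MOE430B, a log2 ratio of -0.06. Its MOE430A probe set was below the filter, at 495.4 and 550.7, a ratio of 0.15. The Angpt1 probe sets pointed in opposite directions by amounts under the SD of 1 ratio. Tek, the angiopoietin receptor, read 2351 and 1984, a ratio of -0.24 that was the lowest of the set and about equal in size to the SD of 1 ratio. A ratio at least as low was found for 26.9% of all genes measured. Tie1, which forms complexes with Tek and modulates it, read 1779 and 1868, a ratio of 0.07. Tek was below 0 and Tie1 above 0 in all of the 11 alternatives that measured them, and neither passed 1.5-fold there. Each has a single probe set, so the alternatives reread the same signals and the constant sign is no further support for it.

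The promoters of the Tie receptors are printed as the pair of related receptors whose ratios had opposite signs, in the same form as for the ligands. Neither of these ratios lay beyond the SD of 1 ratio. Tek lies at chr4:94739039-94739288, plus strand, and Tie1 at chr4:118489850-118490099, minus strand, both in GRCm38.p6. Capitals again mark the ETS core or its reverse complement.
Tek: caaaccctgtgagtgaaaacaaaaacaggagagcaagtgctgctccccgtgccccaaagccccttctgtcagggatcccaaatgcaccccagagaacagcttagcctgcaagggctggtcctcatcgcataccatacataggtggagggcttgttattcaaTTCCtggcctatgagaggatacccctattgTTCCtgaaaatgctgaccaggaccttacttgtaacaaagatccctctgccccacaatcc
Tie1: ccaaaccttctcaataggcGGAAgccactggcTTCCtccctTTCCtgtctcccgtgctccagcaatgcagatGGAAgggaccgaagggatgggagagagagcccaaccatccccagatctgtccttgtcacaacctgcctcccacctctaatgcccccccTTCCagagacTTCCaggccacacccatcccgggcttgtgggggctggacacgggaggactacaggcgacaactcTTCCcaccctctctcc
The Tek window held 2 matches and the Tie1 window 7, and the GC box and the hypoxia core had 0 matches in both. Over the 9 member genes with a listed promoter, the first listed windows held between 1 and 7 ETS cores. A match describes letters in the window only.

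**Figure D3:**
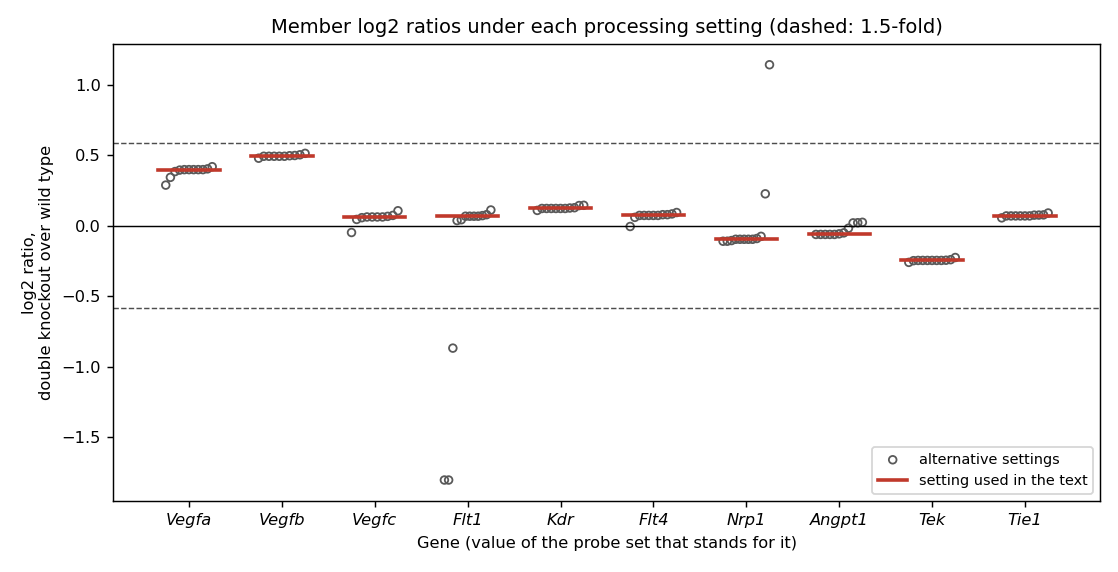
Log2 ratio of the probe set that stands for each gene (y axis) in the setting used in the text (bars) and in each alternative that measured it (open circles). Flt1 (down to -1.80) and Nrp1 (up to 1.14) are the genes that pass the dashed 1.5-fold lines, each where another probe set stands for the gene. Flt1 also passes the line where the median over its passing probe sets is used.

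Other ligands, receptors and modulators of these systems were counted from a list of 13 genes, 10 of them measured. Their median log2 ratio was -0.02, with 1 gene beyond 1.5-fold upward and 1 downward, beside 9.44% and 9.67% of all genes measured. Vegfd, a lymphatic growth factor that like Vegfc binds Flt4, read 3415 in the wild type array and 5554 in the double knockout array by its brightest probe set, a ratio of 0.70. Its other probe sets read 1421 and 1510 (0.09) and 597.2 and 1258 (1.07). The last of these, with a suffix that marks possible cross-hybridisation, passed the filter through the double knockout array alone, so it had to be higher. The remaining Vegfd probe sets had both signals above the filter and were also higher in the double knockout array. Plxnd1, a semaphorin receptor of endothelium, had 0.10, Sema3a, a class 3 semaphorin that binds Nrp1, had -0.08, and Svep1, a matrix protein, had -0.08. The gene beyond 1.5-fold downward was Sema3f, named after its values were seen, with -0.68 by its brightest probe set and up to 1.39 by another. Of the list's genes that were not measured, a pair of ligands is named after their values were seen. Angpt2, the context-dependent antagonist of Tek, was below the filter, at 451.8 and 264.9 on MOE430A and with both signals below the floor on MOE430B. The placental growth factor gene Pgf was below the floor in both MOE430A arrays.

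Signal transducers downstream of the receptors had a median of -0.10 over 22 measured genes, with 1 beyond 1.5-fold upward and 3 downward. Of all genes measured, 9.44% were that much higher and 9.67% that much lower. Prkcb, a protein kinase C isoform, was 2.81-fold lower (1322 and 470.8), and Dok2, a docking protein that binds Tek and is also abundant in blood cells, was 1.93-fold lower (1195 and 620.3). The third was Map2k1, a MAP kinase kinase named after its values were seen, with -0.75. Prkcb and Dok2 passed the filter through the wild type array alone, so that they had to be lower. Lymphocyte markers were lower in the same arrays, 12 of 12 measured with a median of -3.00, and summed over the 10 read on MOE430A they gave 28262 and 3455. Those 10 also passed the filter through the wild type array alone, so that they had to be lower. Some of their ratios are bounds, and the count of 12 is no support for a direction. The part of blood cells in the Prkcb and Dok2 values was not tested. Yes1, a Src family kinase, had 0.99 (0.04 by the lowest of its 3 probe sets), with a wild type signal of 754.6 that was below the filter, and Mapkapk2 had 0.43.

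Endothelial genes known to be induced by VEGF had a median of 0.20 over 12 measured genes, with 4 beyond 1.5-fold upward and 0 downward. The shares over all genes measured were 9.44% upward and 9.67% downward. Hlx, a homeobox gene, read 444.0 and 1386, a ratio of 1.64, and F3, the tissue factor gene, read 503.2 and 917.3, a ratio of 0.87. Both passed the filter through the double knockout array alone, so that they had to be higher, and the count of 4 is no support for a direction. Dll4, the Notch ligand of endothelial tip cells, had -0.53 (1143 and 792.0). Egr3, an early response transcription factor, had -0.07, with only its wild type signal above the filter. The others beyond 1.5-fold, named after their values were seen, were Nr4a2 with 0.78 and Rcan1 with 0.65, the latter at -0.14 by its other probe set. The median turned to -0.045 over 10 genes when probe sets with suffixes other than the plain form were left out, and was 0.055 over 14 genes with no filter, 0.047 as the median over probe sets and 0.09 on MOE430A alone.

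Genes of oxygen sensing, which lies upstream of Vegfa, had a median of -0.14 over 10 measured genes, with 0 beyond 1.5-fold in either direction. Arnt2, a dimer partner of the HIF proteins, had -0.47, Vhl, which marks HIF proteins for decay, had -0.20, Epas1 (HIF2A) had -0.13 and Egln2, a prolyl hydroxylase, had -0.07. Genes that hypoxia induces together with Vegfa had a median of 0.01 over 14 measured genes, again with 0 beyond 1.5-fold. At that fold, 9.44% of all genes measured were higher and 9.67% lower. Pfkfb3, a glycolytic regulator, had 0.58, the glycolytic enzyme gene Pgk1 0.29, Adm, encoding adrenomedullin, -0.19 and Ankrd37 -0.30. Pfkfb3 passed the filter through the double knockout array alone (581.9 and 867.6), so it had to be higher. Vegfa at 0.40 was thus higher than the median of either list.

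Cell type markers that could carry these genes were set beside them. Of 19 measured endothelial markers, 11 were higher and 8 lower, with a median of 0.13. Beyond 1.5-fold were 1 upward and 0 downward, beside 9.44% and 9.67% of all genes measured. Egfl7, a secreted endothelial protein, had 0.75, Sox17, a transcription factor of arteries, 0.54, Icam2, an adhesion molecule, -0.19 and Pecam1, the CD31 antigen, -0.34. Kdr, Tie1, Flt4 and Flt1 at 0.07 to 0.12 lay near that median, and Tek lay below it. Summed over the 16 endothelial markers read on MOE430A, the signals were 65347 and 73335, and over the 3 read on MOE430B they were 19578 and 19159, in the other direction. Lymphatic endothelial markers had a median of -0.19 over 5 genes, with Prox1, the master regulator of lymphatic identity, at -0.66 with only its wild type signal above the filter, Mmrn1 at -0.22, Reln at -0.06 and Pdpn at 0.05. Pericyte markers had a median of 0.04 over 7 genes, with Pdgfrb at 0.93, Kcnj8 at 0.61, Cspg4 at 0.04 and Abcc9 at -0.35.

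Markers of the cells that make surfactant had ratios of the same sign as Vegfa and Vegfb. Alveolar type II cell markers were higher in 9 of 9 measured genes, with a median of 0.49, beside -0.02 over all genes measured. The genes were read on the same arrays, so they are not independent of each other. The 8 read on MOE430A summed to 159313 in the wild type array and 221428 in the double knockout array. Cxcl15, a lung chemokine, had 0.73, Abca3, a lipid transporter of surfactant, 0.56, Lyz2, a lysozyme, 0.27 and Sftpd, a surfactant protein, 0.22. Type I cell markers had a median of 0.04 over 9 genes, with 5 higher and 4 lower. Proliferation markers had a median of -0.73 over 14 genes, with 8 at least 1.5-fold lower, beside 9.67% of all genes measured. A gene among the 8 passed the filter through the wild type array alone, so that it had to be lower. Another gene of the list passed through the double knockout array alone, so that it had to be higher. The part of cell composition in the ratios of the VEGF genes was not tested. Heart muscle markers were bright in both arrays, with a median ratio of 0.16 over 10 genes, and skeletal muscle markers had -1.19 over 4 measured of 10, values at bounds included. The skeletal values at bounds came from genes that passed the filter through the wild type array alone, so that they had to be lower. Summed signals of the 4 were 43528.8 and 47023.5 on MOE430A, in the other direction. Most of that sum was 1 gene, Ckm, named after its values were seen, with 35417 and 42727. The other 3 measured genes were lower in the double knockout array.

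**Figure D4:**
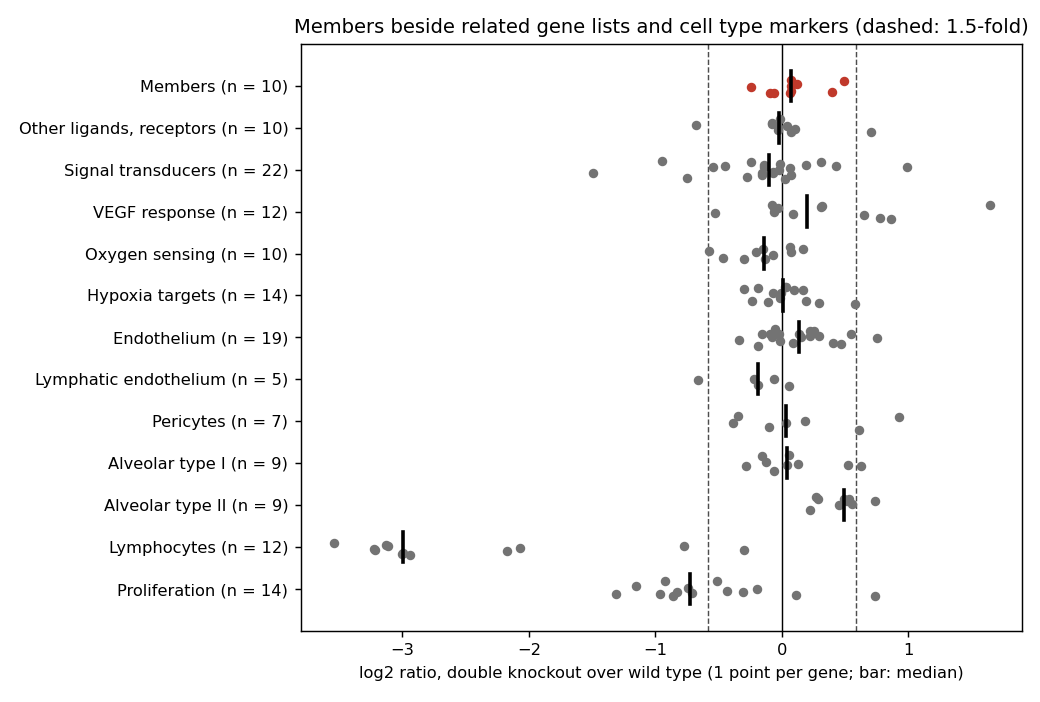
Log2 ratio of each measured gene (x axis) in the members and in related gene lists (y axis), with 1 point per gene and a bar at each median. The members span -0.24 to 0.49, while lymphocyte markers have a median of -3.00 and alveolar type II markers 0.49. Most of the lymphocyte markers passed the filter through the wild type array alone.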

How the data were processed

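The deposited values are signal intensities on a linear scale, 1 per probe set and array. The submitters' processing notes name MAS5; the sources used here do not give its version, settings or detection calls. The authors' arrays each had a 2% trimmed mean of 1500, so each had been scaled on its own, and none held a signal of 0. This scaling assumes equal total signal in both genotypes.

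After removal of 64 control probe sets per design, the double knockout array was divided by 1 factor per design (1.004 and 1.008) that set the median ratio of passing probe sets to 1. A probe set passed when its higher signal reached the median of its design (787.4 on MOE430A, 855.1 on MOE430B). Signals below the 25th percentile (283.8 and 278.1) were set to it, so such ratios are bounds. Probe sets passing numbered 12203 and 12892. For each gene the brightest passing probe set, by mean log2 signal, was used. Shared probe sets read a median 4.02-fold higher on MOE430B, so this favours that design.

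GEO's platform annotation gave the gene names. It lists 1 gene for 20380 probe sets of MOE430A, several for 691 and none for 1555, and on MOE430B for 14661, 245 and 7605. Of the 1-gene probe sets, 20351 and 14486 matched RefSeq gene identifiers (GRCm38.p6), and 9 of 10 member genes had a listed promoter.

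The members and lists were chosen with earlier results of these data known, and the sequences and motifs after the values were seen. Named genes were every member and, of each pathway, endothelial, lymphatic and pericyte list, the 2 highest and 2 lowest genes whose passing probe sets shared 1 direction and whose signals reached the floor. Of the other marker lists, type II genes are named by the same rule and the rest by counts and medians. Other names are said to be chosen after their values were seen. Genes were counted at 1.5-fold and 2-fold. There were 12 alternatives. The steps were tested on simulated arrays. The work used python 3.11.15, numpy 2.4.6 and pandas 2.3.3.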

Additional observations from a re-analysis of the deposited data

How the results depend on the processing

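The median log2 ratio of the member genes measured kept between 0.03 and 0.08 over 12 alternatives, of which MOE430B alone measured 4 of them, MOE430A alone 8, and plain probe sets only and the common scale 9 each, and every change in the counts came from 1 probe set each of Flt1 and Nrp1. The number of passing member probe sets beyond 1.5-fold was 1 in place of 2 with the floor at the median, with the filter at the 75th percentile, on MOE430A alone and on MOE430B alone. The number of genes at least 1.5-fold lower was 1 (Flt1) with the median over probe sets, on MOE430A alone and with both designs on a common scale. The number at least 1.5-fold higher was 1 (Nrp1) on MOE430B alone. The number beyond 2-fold was 1 on MOE430A alone, on MOE430B alone and on the common scale. The alternatives were run for 8 other lists (pathway, oxygen, endothelial, lymphatic and pericyte genes) and not for the alveolar, lymphocyte, proliferation and muscle markers. Medians among the 8 that moved by more than the SD of 1 ratio were those of VEGF response genes (-0.045 with plain probe sets only, 0.78 from 1 gene on MOE430B alone), lymphatic markers (-0.44 from 2 genes on MOE430B alone) and pericyte markers (-0.35 from 1 gene on MOE430B alone). These single-design values rest on fewer genes by construction. Angpt1, Vegfc and Flt4 lay so close to 0 that their signs turned in some alternatives, with ranges of -0.06 to 0.03, -0.05 to 0.11 and -0.004 to 0.09. No paired analysis was possible because each group had 1 array, and no replicate could be left out. Detection calls were not used here, so signal over background was judged from the filter and floor alone.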
